A study of Mus musculus with 8 samples.

Results

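Transcripts of blood-derived immune cells were followed in intestinal stem cells sorted for a high Lgr5 reporter signal. The 35 genes are textbook markers of leukocytes, chosen by name and set apart as 15 markers of T cells and intraepithelial lymphocytes, 5 of B and plasma cells and 15 of myeloid cells. A named probe was present for 34 of them, out of 21368 genes with a named probe on the array, and Itgae had none. Where a gene had several probes, the brightest stood for it. Probes called above background on fewer than 4 of the 8 arrays were set aside as too dim, which left 23 of the 34 for testing, 9 of the T list, 4 of the B list and 10 of the myeloid list, among 25403 features tested in all.

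The arrays held RNA of 4 Irf2_AhcKO samples and 4 control samples, each from mouse intestinal stem cells labelled Lgr5-high. Irf2_AhcKO mice carried Irf2fl/fl, AhCre and Lgr5-EGFP-Ires-CreERT2, and controls carried Irf2fl/fl and Lgr5-EGFP-Ires-CreERT2. Mice of both groups were sampled 1 month after 5 consecutive days of β-naphthoflavone, which switches on the xenobiotic-inducible promoter of AhCre, so the controls had the drug as well, and the CreERT2 of the reporter allele was common to both groups. The labels give no ages. The promoter of AhCre acts in many epithelial cells of the gut and in liver, not in stem cells alone. The series design names 4 independent mice per genotype and also 2 biological replicates, so the p values here cover only how far these samples spread.

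Slide 1 held replicates 1 and 2 of both groups and slide 2 held replicates 3 and 4, and 35.5% of all features differed between the slides. Ah-Cre stands in the scanner file names of all 4 slide 2 samples, both controls included, although the labels give controls no AhCre, so results are also given on slide 1 alone. Irf2 itself was not lower under the label Irf2_AhcKO, at 0.91 ± 0.23 in Irf2_AhcKO and 0.64 ± 0.26 in controls (SD, n = 4 each, log2 scale as defined below), with a difference of 0.27 (SE 0.12, limma adjusted p = 0.429). No source states where this probe lies relative to the deleted part, so it may check nothing about the deletion, and all directions are between libraries as labelled. All 11 stem cell and epithelial markers with a probe, Lgr5, Ascl2, Smoc2, Epcam and Cdh1 among them, were well above background on all 8 arrays. So were 63% of all genes with a probe and all 6 Paneth cell markers with a probe. Detection alone therefore does not test whether the cells were Lgr5-high stem cells.

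T cells recognise antigen through a receptor that signals through the CD3 chains, and CD8 T cells that lie between epithelial cells of the gut, the intraepithelial lymphocytes, carry granzymes and other killing proteins. B cells signal through CD79A and CD79B, and macrophages, dendritic cells and granulocytes share the adaptor chains FCER1G and TYROBP. All of these descend from bone marrow stem cells, not from the Lgr5 stem cells of the crypt, while intraepithelial lymphocytes lie against the epithelium from which stem cells are prepared. Several of the listed genes are not exclusive to leukocytes: CD14 is made by epithelial cells too, and lysozyme has a second gene, Lyz1, in Paneth cells.

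Detection differed between members of the same complex or cell type. Agilent's software calls a spot well above background when its signal clearly exceeds that of its surroundings. By that call 20 of the 34 brightest probes were above background on all 8 arrays, 6 on some and 8 on none, shares of 58.8% and 23.5% for all and none, against 63% and 19.8% over all genes with a probe. Per array, 22, 23, 23 and 22 members were above background in Irf2_AhcKO replicates 1 to 4, against 24, 25, 20 and 22 in control replicates 1 to 4. The 8 members above background on no array were Cd3g and Cd2 (T cells), Ms4a1 (the B cell surface protein CD20) and Cx3cr1, C1qc, Itgax, S100a8 and S100a9 (myeloid cells). A probe without a signal shows only that this probe gave none on these arrays, whose RNA was amplified from 20 ng.

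**Figure D1:**
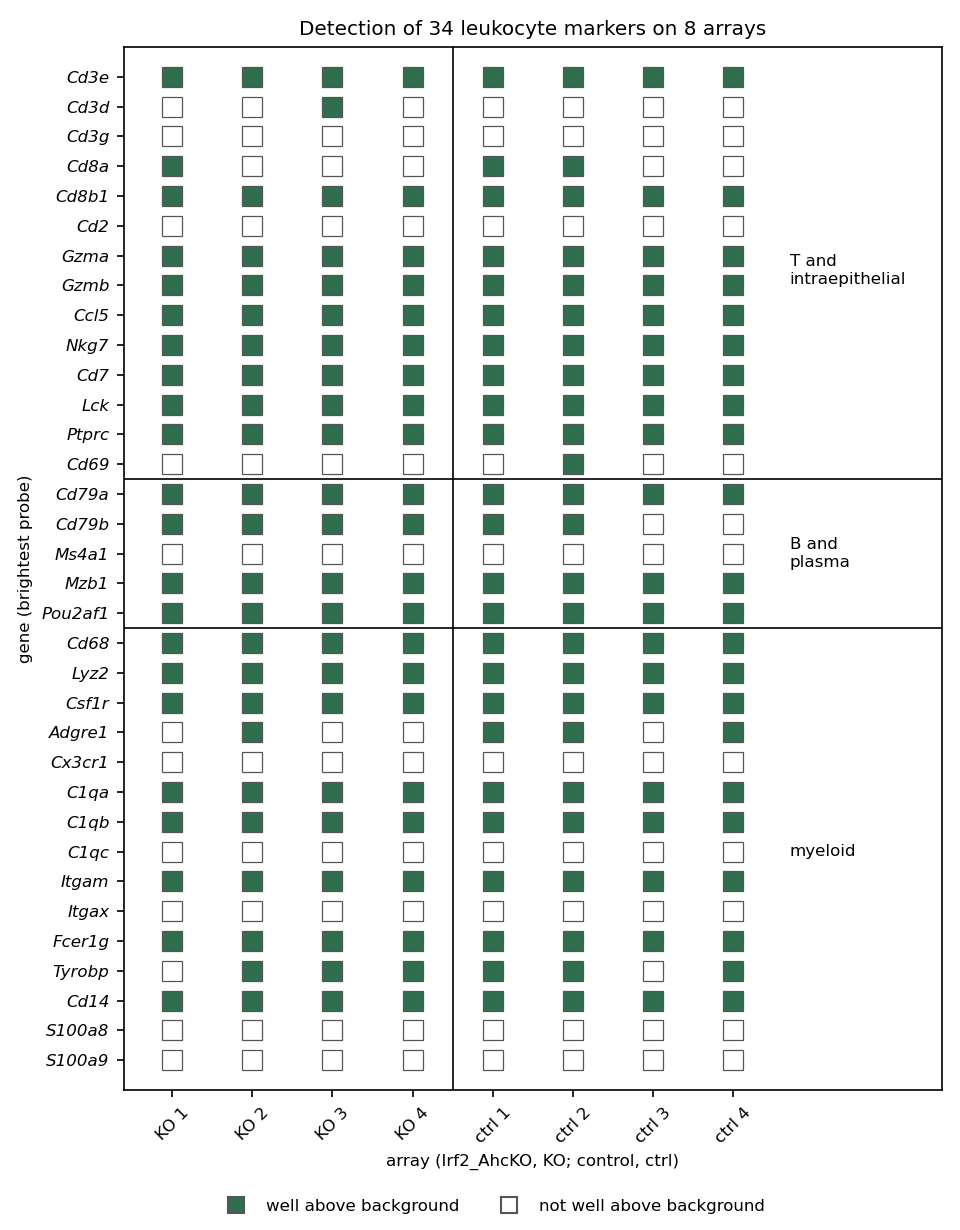
Call of the brightest probe of each of 34 leukocyte markers (rows) on each array (columns), with Irf2_AhcKO replicates 1 to 4 left of control replicates 1 to 4. Filled squares are well above background and open squares are not: 20 rows are filled throughout, 8 are open throughout, and Cd79b is open on control replicates 3 and 4 only.

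Levels below are log2 of the processed intensity minus the 75th percentile of the same array, so that 0 marks that percentile and a step of 1 is a doubling. They follow a probe across arrays and say nothing on which of 2 genes has more RNA. The lowest signal among spots well above background lay between -4.44 and -4.27 on Irf2_AhcKO arrays and between -4.65 and -4.26 on control arrays. In samples of many cells, fewer leukocytes and less RNA per leukocyte cannot be told apart.

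Of the CD3 chains, which carry the signal of the T cell receptor, Cd3e alone gave signal throughout. Cd3e stood at 0.08, -0.20, -0.53 and -0.40 in Irf2_AhcKO replicates 1 to 4, against -0.42, -0.05, -0.72 and -0.47 in control replicates 1 to 4. These groups overlapped. Cd3d was above background on Irf2_AhcKO replicate 3 only, at -3.17, against -6.51 to -5.07 on the other Irf2_AhcKO arrays and -6.58 to -5.28 on control arrays. Cd3g lay between -5.81 and -4.38 in Irf2_AhcKO and between -6.91 and -4.66 in controls, above background on none.

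The CD8 co-receptor, which holds T cells to MHC class I, has an alpha and a beta chain. Cd8b1, the beta chain, stood at -3.31, -3.10, -2.97 and -1.44 in Irf2_AhcKO replicates 1 to 4, against -3.13, -3.33, -3.53 and -2.83 in controls. Irf2_AhcKO replicate 4 lay above the rest, and the groups overlapped. Cd8a, the alpha chain, was above background on Irf2_AhcKO replicate 1 (-3.92) and on control replicates 1 and 2 (-4.01 and -3.11), with the other 5 arrays between -5.15 and -4.40. The second probe of Cd8a was above background on no array.

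Among the killing proteins, Gzma, the serine protease granzyme A, spread widely within both groups. Its levels were 0.03, 0.57, 0.88 and -0.42 in Irf2_AhcKO replicates 1 to 4, against -0.79, 1.21, -0.33 and -0.55 in control replicates 1 to 4, so the highest and the lowest array were both controls. Gzmb, granzyme B, which cuts caspases in the target cell, had -2.30, -2.95, -3.20 and -2.68 in Irf2_AhcKO, against -2.62, -1.88, -3.30 and -2.32 in controls. Control replicate 2 was the highest array for Gzma, Gzmb, Cd8a and Cd69. Cd69, an early activation marker that retains T cells in tissue, was above background on that array only, at -4.31, against -6.54 to -6.24 in Irf2_AhcKO and -6.76 to -6.35 in the other controls. Over the 14 T markers with a probe, control replicate 2 was highest in 4 and control replicate 1 in 1. Control replicates 3 and 4 were highest in none, and Irf2_AhcKO replicates 1 to 4 in 3, 1, 2 and 3. Cd3g and Cd2, above background on no array, are counted among them. Over all genes with a probe, control replicates 1 to 4 were highest in 18.5%, 13.5%, 15.0% and 8.0%. For Irf2_AhcKO replicates 1 to 4 the shares were 13.2%, 13.2%, 9.7% and 8.9%.

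Nkg7, a protein of cytotoxic granules, was measured by 2 probes that differed in detection. The brighter had 2.37, 2.33, 2.21 and 2.57 in Irf2_AhcKO replicates 1 to 4, against 1.59, 1.77, 2.19 and 2.33 in control replicates 1 to 4. Control replicates 1, 2 and 3 lay below every Irf2_AhcKO array, replicate 3 narrowly, and control replicate 4 lay among them. The dimmer probe of the same transcript was above background on control replicate 2 only (-4.29), with the other arrays between -6.74 and -5.79.

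Ccl5, a chemokine stored by CD8 T cells, lay between -0.44 and 0.28 in Irf2_AhcKO and between -0.42 and 0.16 in controls. Lck, the kinase that phosphorylates the CD3 chains, had 0.69, 0.74, -0.04 and 0.24 in Irf2_AhcKO replicates 1 to 4, against -0.10, 0.21, -0.03 and 0.13 in controls, and the groups overlapped. Cd7, a surface protein of T and natural killer cells, was among the steadiest members, from -2.22 to -1.94 in Irf2_AhcKO and from -2.17 to -1.95 in controls. Ptprc, the phosphatase CD45 found on nearly all leukocytes, ran from -2.11 to -1.37 in Irf2_AhcKO and from -2.05 to -1.34 in controls. Cd2, an adhesion receptor of T cells, lay between -5.86 and -5.19 in Irf2_AhcKO and between -6.13 and -5.60 in controls.

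Of the B cell receptor chains, Cd79b is the member whose labelled groups did not overlap. Cd79b had -2.73, -2.96, -3.00 and -2.98 in Irf2_AhcKO replicates 1 to 4, against -3.46, -3.60, -4.67 and -5.25 in control replicates 1 to 4. All 4 Irf2_AhcKO arrays were above background, and of the controls only replicates 1 and 2. Its partner Cd79a, with which it forms the signalling unit, had -3.58, -2.88, -3.33 and -3.50 in Irf2_AhcKO, against -3.76, -3.09, -3.16 and -3.27 in controls, and these groups overlapped throughout. The 2 slide 2 controls that were low in Cd79b were therefore not low in Cd79a.

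The other B list members did not separate the groups either. Ms4a1 lay between -5.84 and -5.08 in Irf2_AhcKO and between -6.32 and -5.29 in controls, above background on none. Mzb1, a chaperone of antibody secretion in plasma cells, stayed between -3.01 and -2.89 in Irf2_AhcKO and between -3.00 and -2.94 in controls. Pou2af1, a coactivator of octamer-driven transcription in B cells, had -2.67, -2.01, -2.25 and -2.88 in Irf2_AhcKO, against -2.51, -2.20, -2.34 and -2.58 in controls. Irf2_AhcKO replicate 2 was the highest array in 4 of the 5 B list members, all but Cd79b, and in 13.2% of all genes. The 4 include Ms4a1, which was above background on no array.

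Of the adaptor chains that myeloid and killer cells use, Fcer1g leaned towards Irf2_AhcKO and Tyrobp did not keep a direction. Fcer1g had -2.78, -2.50, -2.08 and -2.08 in Irf2_AhcKO replicates 1 to 4, against -2.69, -2.93, -2.66 and -3.26 in controls. The 3 highest arrays were Irf2_AhcKO, while Irf2_AhcKO replicate 1 lay among the controls. Tyrobp had -4.72, -3.42, -3.14 and -3.35 in Irf2_AhcKO, against -2.93, -1.49, -4.44 and -4.01 in controls. On slide 1 both controls lay above both Irf2_AhcKO arrays, and on slide 2 both lay below them.

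The C1q chains, which macrophages secrete together as the first complement component, differed in detection. C1qa had -2.55, -2.64, -3.89 and -3.62 in Irf2_AhcKO replicates 1 to 4, against -2.35, -2.63, -3.40 and -3.57 in controls, lower on slide 2 in both groups. C1qb had 0.44, 0.53, 0.65 and 0.62 in Irf2_AhcKO, against 0.04, -0.09, 0.37 and 0.79 in controls. The probe of C1qc was above background on no array, at -6.56 to -6.23 in Irf2_AhcKO and -6.83 to -6.24 in controls. Both other chains were above background on all 8 arrays.

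Itgam and Csf1r were each measured by 3 probes. Itgam encodes the integrin CD11b, and its brightest probe had 7.98, 7.79, 6.59 and 6.58 in Irf2_AhcKO replicates 1 to 4, against 7.85, 7.92, 6.67 and 6.62 in control replicates 1 to 4. It was thus at least 95.7 times the 75th percentile on every array and lower on slide 2 in both groups. The other 2 Itgam probes averaged -0.81 and -3.00 in Irf2_AhcKO, against -0.82 and -2.98 in controls, and the slide 2 minus slide 1 difference was -1.27 for the brightest and 0.16 and -0.31 for the others. Csf1r, the receptor for the macrophage growth factor CSF1, had probes that averaged 4.66, -1.35 and -5.07 in Irf2_AhcKO, against 4.52, -1.62 and -5.59 in controls, the dimmest above background on none. Those 3 probes carry the same accession.

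Cd68, a lysosomal protein of macrophages, lay between -0.18 and 0.66 in Irf2_AhcKO and between -0.16 and 0.69 in controls. Lyz2, the lysozyme of myeloid cells, had 0.11, -0.64, 1.56 and 0.82 in Irf2_AhcKO replicates 1 to 4, against 0.38, 0.31, 1.25 and 0.53 in controls, highest on replicate 3 of each group. Lyz1, the Paneth cell lysozyme, was likewise highest there, at 5.26 in Irf2_AhcKO and 4.91 in controls, on arrays that ranged down to 3.96 and 4.32. Whether the Lyz2 probe reads Lyz1 was not tested. Cd14, a receptor for bacterial lipopolysaccharide, had -0.71, -1.10, -1.14 and -0.57 in Irf2_AhcKO, against -1.32, -1.24, -1.36 and -1.04 in controls, and only the highest control lay above any Irf2_AhcKO array.

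Adgre1, the macrophage marker F4/80, was above background on Irf2_AhcKO replicate 2 (-3.70) and on control replicates 1, 2 and 4 (-3.65, -3.73 and -3.99). Its second probe was above background on none. The remaining myeloid markers gave no signal above background in either group. Cx3cr1, a chemokine receptor of gut macrophages, was above background with none of its 3 probes. The dendritic cell integrin Itgax lay at -6.57 to -6.41 in Irf2_AhcKO and -6.84 to -6.41 in controls. The neutrophil proteins S100a8 and S100a9 lay at -6.72 to -5.86 in Irf2_AhcKO and -6.87 to -6.41 in controls.

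Promoters were searched because IRF2 binds interferon response elements and PU.1, an ETS factor, serves myeloid genes. RefSeq promoters (GRCm38.p6, 250 bases before to 50 after the start) were listed for 21 of the 35 genes, 23 promoters in all. The interferon response element, searched as a pair of GAAA with any 2 bases between them on either strand, was in 1 of the 23 (Gzma) and in 3.44% of all 32851 promoters. The PU.1-type site GAGGAAGT was in 2 of the 23 (S100a8 and C1qc) and in 3.2% of all promoters, and the octamer ATGCAAAT in none of the 23 and 1.74% of all. No matches of different motifs overlapped. The Gzma sequence is shown because it alone of the 21 genes searched held the interferon response element, and C1qc and C1qb as genes of 1 complex that differed in detection. Each runs 5′ to 3′ over the 250 bases before the start, with the match in capitals, which read on the opposite strand give the motif. They lie at chr13:113100982-113101231, chr4:136892915-136893164 and chr4:136886201-136886450, each on the minus strand.
Gzma: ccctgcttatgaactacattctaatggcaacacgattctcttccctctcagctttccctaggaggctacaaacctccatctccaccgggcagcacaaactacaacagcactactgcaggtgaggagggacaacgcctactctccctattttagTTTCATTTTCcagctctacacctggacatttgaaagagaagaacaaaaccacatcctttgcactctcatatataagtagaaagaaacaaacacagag
C1qc: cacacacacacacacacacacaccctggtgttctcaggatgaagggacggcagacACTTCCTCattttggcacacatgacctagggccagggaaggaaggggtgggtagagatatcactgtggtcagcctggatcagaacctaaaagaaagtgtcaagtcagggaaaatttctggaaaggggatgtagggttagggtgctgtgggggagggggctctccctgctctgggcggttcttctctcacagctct
C1qb: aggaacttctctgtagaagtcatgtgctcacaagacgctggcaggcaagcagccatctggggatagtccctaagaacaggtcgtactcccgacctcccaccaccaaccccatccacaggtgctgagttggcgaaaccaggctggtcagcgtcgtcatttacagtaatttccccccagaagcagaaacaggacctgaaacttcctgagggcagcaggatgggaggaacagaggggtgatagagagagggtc
A match is a stretch of letters, and these data do not show binding.

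Between the labelled groups, no marker passed. With limma (slide as a term, two-sided, Benjamini-Hochberg adjustment over all 25403 features), 0 of the 23 tested markers passed an adjusted p of 0.05, where 0.0984% of all features did. Without adjustment, 3 of 23 (13%) had p below 0.05, all higher in Irf2_AhcKO, against 11.7% of all features in either direction, 5.98% higher and 5.74% lower. The 3 were Cd79b, Nkg7 and Fcer1g. The groups did not overlap in 1 of 23 (4.35%), against 3.85% of all features. The counts in either direction and without overlap were thus close to the background of the comparison.

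The median log2 difference was 0.15 for the 9 T markers tested, with 7 positive and 2 negative, 0.01 for the 4 B markers, with 2 of each sign, and -0.06 for the 10 myeloid markers, with 4 positive and 6 negative. Over all features the median was -0.0024, and 49.5% were positive. On slide 1 alone, the slide whose control names do not mention Ah-Cre, the medians were 0.08 for T, 0.13 for B and -0.01 for myeloid markers. On slide 2 alone they were 0.06, -0.05 and 0.04 in the same order. With normexp the T median was 0.070.

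**Figure D2:**
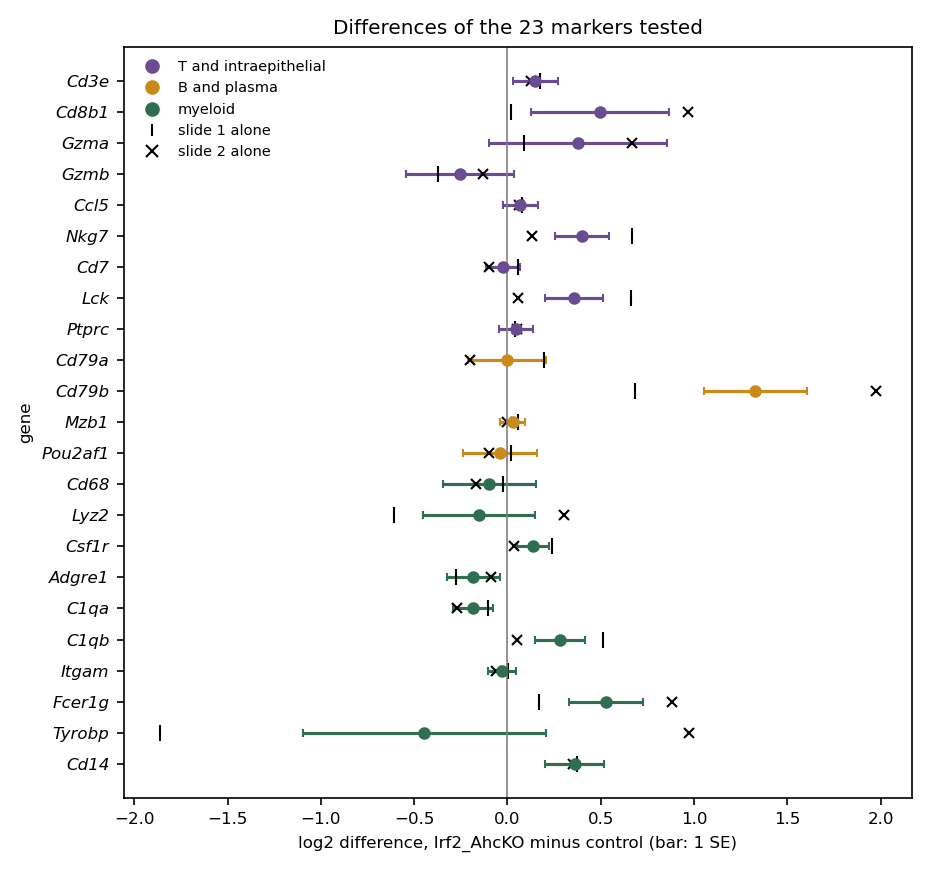
Log2 difference (Irf2_AhcKO minus control, horizontal axis) of each of the 23 tested markers from the fit with the slide as a term, with a bar of 1 SE. Vertical ticks give the difference on slide 1 alone and crosses that on slide 2 alone: Cd79b lies right of 0 on both slides, while Tyrobp is at -1.86 on slide 1 and 0.97 on slide 2.

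Cd79b had a difference of 1.33 (SE 0.28, limma adjusted p = 0.19), from a mean of -2.92 ± 0.13 in Irf2_AhcKO and -4.25 ± 0.86 in controls (SD, n = 4 each). It was 0.68 on slide 1 and 1.98 on slide 2, where neither control was above background. The test of that difference between slides gave an interaction of 1.29 with an unadjusted p of 0.00424 (limma adjusted p = 0.999), and 0 of 25403 features passed it after adjustment while 1091 (4.29%) had an unadjusted p below 0.05, 3 of the 23 markers (Cd79b, Tyrobp and Lck) among them. With normexp background correction, whose offset of 50 draws dim signals together, the Cd79b difference was 0.215, below that of Nkg7 (0.356).

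Fcer1g averaged -2.36 ± 0.34 in Irf2_AhcKO and -2.89 ± 0.28 in controls (SD, n = 4 each), a difference of 0.53 (SE 0.20, limma adjusted p = 0.387). It was 0.17 on slide 1 and 0.88 on slide 2, 0.192 with normexp and 0.336 without control replicate 4. Nkg7 averaged 2.37 ± 0.15 in Irf2_AhcKO and 1.97 ± 0.34 in controls, a difference of 0.40 (SE 0.14, limma adjusted p = 0.373), at 0.67 on slide 1 and 0.13 on slide 2. The larger difference was thus on slide 2 for Fcer1g and on slide 1 for Nkg7, and the test of that difference between slides gave a limma adjusted p of 0.999 for both.

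Cd8b1 had a difference of 0.49 (SE 0.37, limma adjusted p = 0.599), which was 0.09 without Irf2_AhcKO replicate 4, 0.26 without control replicate 3 and 0.157 with normexp. Tyrobp had -0.44 (SE 0.65, limma adjusted p = 0.795), and its interaction between slides was 2.84 (unadjusted p = 0.0128, limma adjusted p = 0.999). Without control replicate 2 the Tyrobp difference was 0.13, and without Irf2_AhcKO replicate 1 it was 0.10. Pou2af1 had -0.04 (SE 0.20, limma adjusted p = 0.945). The other tested markers lay between -0.25 (Gzmb) and 0.38 (Gzma), with Cd14 at 0.36, Lck at 0.36 and C1qb at 0.28.

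**Figure D3:**
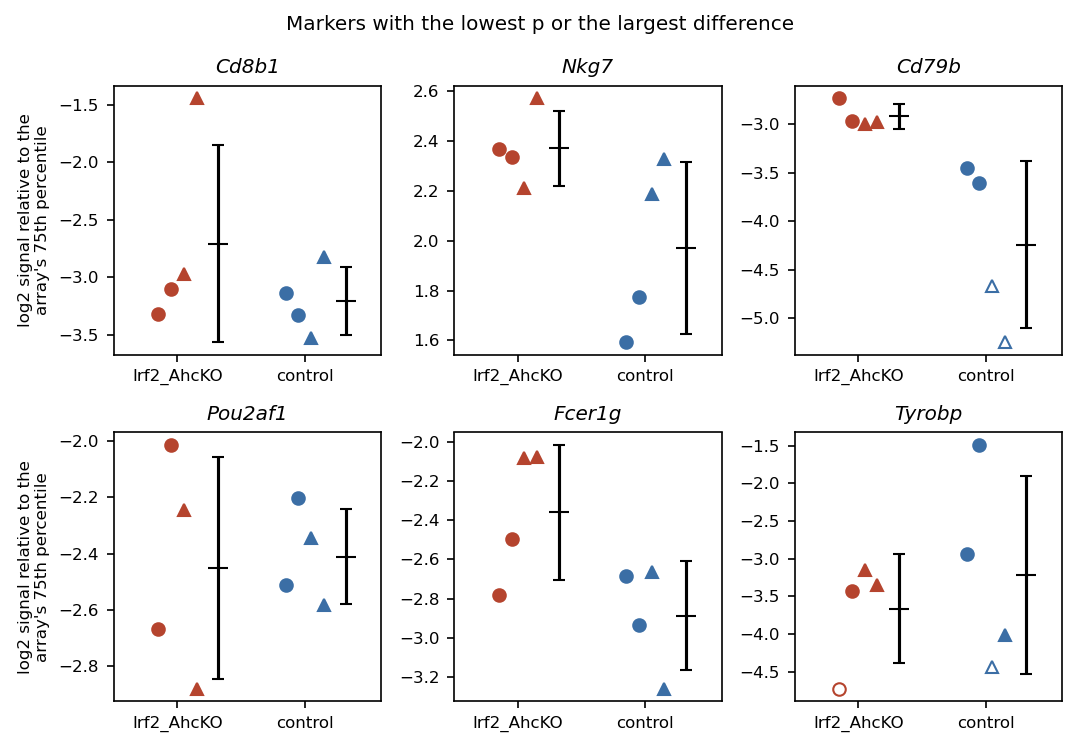
Log2 signal over the 75th percentile of its array (vertical axis) of the 6 markers given full statistics, with Irf2_AhcKO left of control. Circles are slide 1 and triangles slide 2, open symbols are not well above background, and the black mark with its bar is the group mean ± SD (n = 4); the groups are apart in Cd79b and overlap in the other 5.

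Several markers differed between the slides in both groups. Between slide 2 and slide 1, 7 of the 23 tested markers passed (30.4%), against 35.5% of all features, with 2 higher and 5 lower on slide 2. Lower on slide 2 were the brightest probe of Itgam (log2 difference -1.27, SE 0.08, limma adjusted p = 0.000118), C1qa (-1.08, SE 0.11), Ptprc (-0.58, SE 0.09), Ccl5 (-0.49, SE 0.09) and Cd3e (-0.39, SE 0.12). Higher were Lyz2 (1.00, SE 0.30) and the brightest probe of Csf1r (0.40, SE 0.08). The second Csf1r probe, above background on all 8 arrays, went the other way at -0.44, and the dimmest, above background on none, had -0.75, so Csf1r has no settled direction between slides. The probes of Itgam differed as well, the other 2 having 0.16 and -0.31, each above background on all 8 arrays. The limma adjusted p values of the 7 markers ran from 0.000118 (Itgam) to 0.0428 (Cd3e). The median slide difference was -0.36 for T, -0.10 for B and -0.06 for myeloid markers, against -0.08 over all features. Slides and scans coincide here and may also hold separate mouse cohorts, which cannot be told apart.

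**Figure D4:**
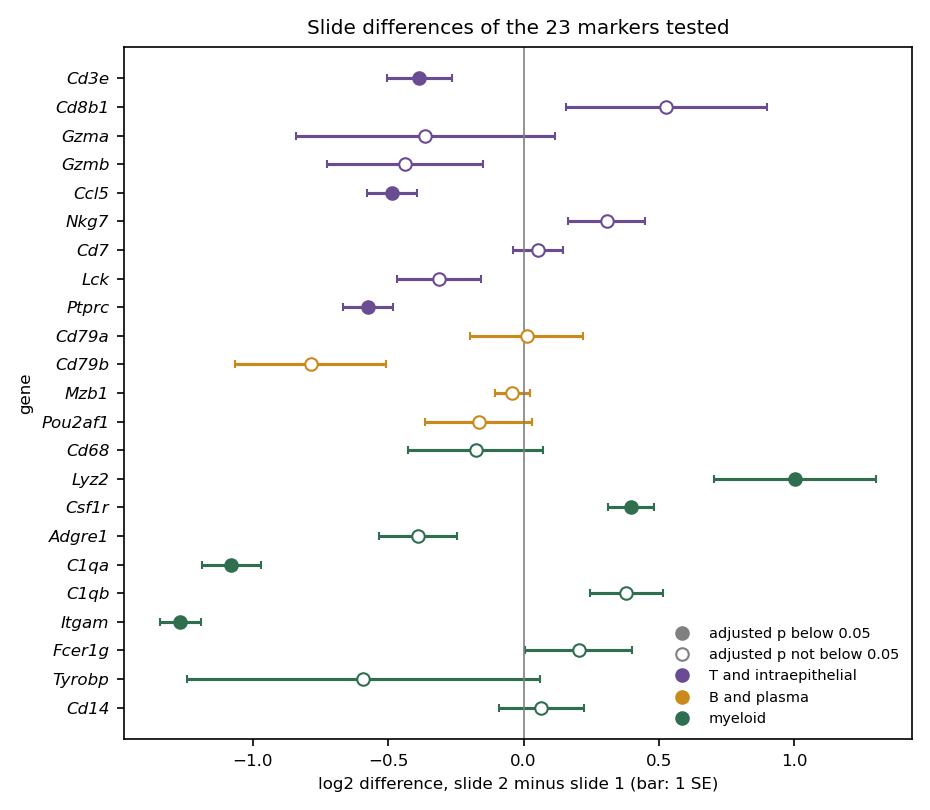
Log2 difference between slide 2 and slide 1 (horizontal axis) of the 23 tested markers, with a bar of 1 SE and colour by list. Filled points passed an adjusted p of 0.05: the brightest Itgam probe, C1qa, Ptprc, Ccl5 and Cd3e on the lower side, Lyz2 and the brightest Csf1r probe on the higher side.

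Further genes of the same cell types were likewise detected in part. No gene passed over all features in the lists of T cell receptor signalling (12 tested of 20 with a probe), killer cells (10 of 17), other B and plasma cell genes (16 of 21), other myeloid genes (11 of 23), mast cells (2 of 9) or most leukocytes (16 of 24). Shares above background on all 8 arrays were, in that order, 45%, 58.8%, 57.1%, 34.8%, 22.2% and 62.5%, against 63% of all genes. Shares above background on no array were 20%, 35.3%, 14.3%, 43.5%, 66.7% and 20.8%, against 19.8%, each over genes with a probe. Among genes above background on no array were Ifng, the effector cytokine of T cells, the killer receptors Klrk1 and Klrd1, and Il7r, needed for T cell survival. So were Jchain, which joins antibodies, the transcription factor of myeloid cells Spi1, the macrophage receptors Cd163 and Mrc1, the mast cell proteases Mcpt1 and Cpa3, and the actin-binding protein of leukocytes Coro1a. The killing protein Prf1 and the B cell receptors Cd22 and Cr2 were above background on all 8 arrays, as was Spib, a factor of B cells that gut epithelium also makes.

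By unadjusted p, the leading T cell signalling genes were Fyb, an adaptor (0.84), Cd4, the co-receptor of helper T cells (0.20), Lat, a membrane scaffold (0.17), and Cd247, the receptor's zeta chain (0.27). In the killer list they were the receptor Klre1 (0.18), the adaptor Hcst (-0.31), the granzyme Gzmk (0.13) and the receptor Cd244a (0.11). Other B cell genes were led by the proteoglycan Sdc1 (-0.40), Cd22 (0.22), Cr2 (0.17) and Fcer2a (0.16). Other myeloid genes were led by the protease Ctss (-0.48, limma adjusted p = 0.110), the antibody receptor Fcgr1 (0.37), the growth factor receptor Csf3r (0.11) and the transcription factor Zbtb46 (0.26). The mast cell list held Tpsb2 (0.30) and Kit (0.26).

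Genes of most leukocytes had a positive difference in 14 of 16 tested, against 49.5% of all features, with a median of 0.17, and none passed. Stem cell and epithelial markers had a negative difference in 9 of 11, with a median of -0.15, and their part in this was not tested. Itgb2, the chain that pairs with CD11b, had 0.36, Itgal 0.13, Arhgdib 0.15 and Rac2 0.20. Of the genes by which epithelium attracts or keeps leukocytes, none of 12 passed, and 7 were positive and 5 negative. Without adjustment, 41.7% of the 12 had a limma p below 0.05, 4 higher and 1 lower, against 11.7% of all features. The chemokines Ccl28, Cxcl16, Cxcl10 and Cxcl1 had 0.35, 0.52, 1.81 and 1.71. Il18, a cytokine of the same list named after its value was seen, had -0.76 (limma adjusted p = 0.389). Cxcl10 was above background on 3 of 4 Irf2_AhcKO arrays and 1 of 4 control arrays.

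Averaged over genes above background on all arrays, the levels of the T, B and myeloid markers overlapped between groups. The mean level of 9 T markers was -0.63, -0.67, -0.89 and -0.74 in Irf2_AhcKO replicates 1 to 4, against -0.99, -0.62, -1.13 and -0.90 in controls. That of 8 myeloid markers was 0.96, 0.74, 0.85 and 0.80 in Irf2_AhcKO, against 0.83, 0.73, 0.79 and 0.59 in controls. That of 3 B markers ran from -3.13 to -2.60 in Irf2_AhcKO and from -3.07 to -2.76 in controls. Of all lists averaged in this way, only that of T cell receptor signalling did not overlap, and narrowly. Its mean over 9 genes was -0.99, -0.89, -0.99 and -0.94 in Irf2_AhcKO replicates 1 to 4, against -1.22, -1.01, -1.10 and -1.11 in controls. None of its genes passed, and taken singly 0 of its 12 tested genes were without overlap. Fyb had the largest difference among the 9 (0.84), and the mean without Fyb was not computed.

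MHC class II genes, which B cells, macrophages and dendritic cells make and which gut epithelium makes too, had a mean level of 1.23, 1.84, 0.57 and 1.15 in Irf2_AhcKO replicates 1 to 4, against -0.07, 0.29, -0.06 and 0.70 in controls. All 7 had a positive difference and an unadjusted p below 0.05, against 11.7% of all features, and none passed after adjustment. Their median was 1.59 on slide 1 and 0.62 on slide 2. They were led by H2-Aa (1.42), H2-DMa (1.00), H2-Ab1 (1.18) and H2-Eb1 (0.83). Irf2_AhcKO replicate 2, the highest array for class II, was also the highest for the B markers, at -2.60, but not for the T or myeloid ones. Irf2_AhcKO replicate 4, at 1.15 for class II, was the lowest for the B markers, at -3.13. Control replicate 2, at 0.29 for class II, had -2.76 for the B markers. This B mean covers 3 genes and leaves out Cd79b, which was not above background on all 8 arrays. On Irf2_AhcKO replicates 2 and 4 and control replicate 2, Cd79b had -2.96, -2.98 and -3.60. The mean of 12 other B cell genes on those arrays was 0.46, -0.09 and 0.26. The part of leukocytes in the class II levels was not tested.

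**Figure D5:**
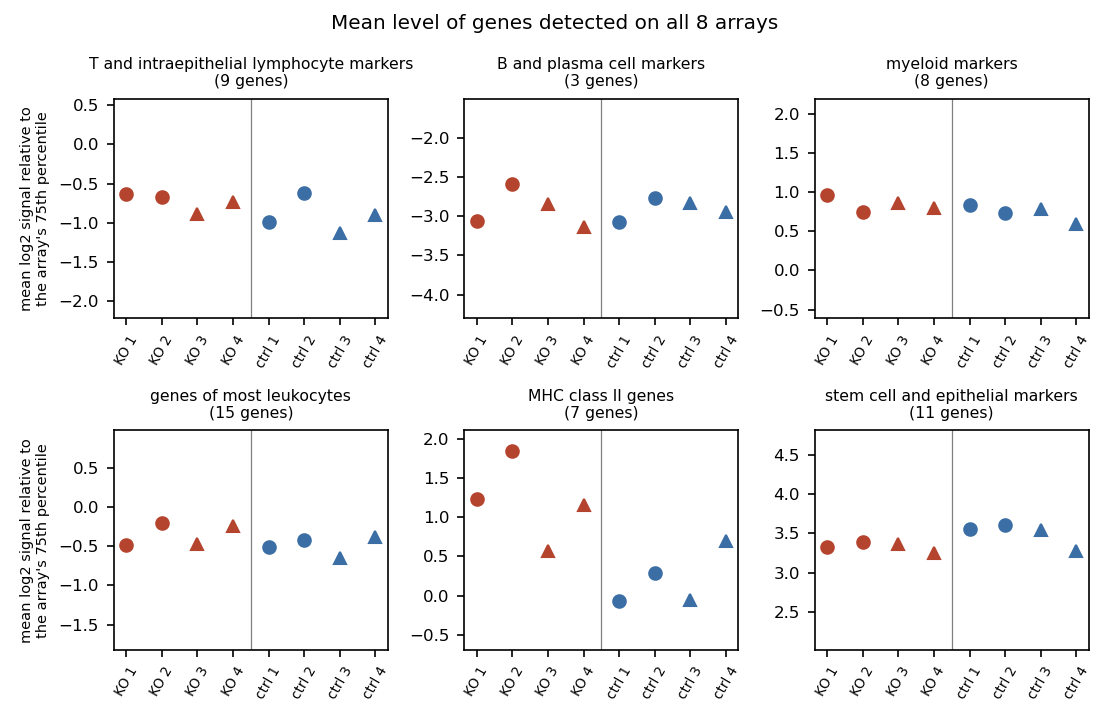
Mean log2 signal, with the 75th percentile of each array set to 0, over the genes of a list detected on all 8 arrays (vertical axes all span the same range of log2 units), per array, with Irf2_AhcKO left of control and circles for slide 1, triangles for slide 2. The T, B and myeloid markers overlap between groups, and so do class II genes, which range from 0.57 to 1.84 in Irf2_AhcKO and from -0.07 to 0.70 in controls.

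Other cell types were followed on the same arrays. Stem cell and epithelial markers averaged 3.25 to 3.39 in Irf2_AhcKO and 3.27 to 3.61 in controls, led by Krt19 (-0.43), Ascl2 (-0.46), Epcam (-0.16) and Lgr5 (-0.29). Tuft cell markers, some of which leukocytes share (Siglecf), were led by Trpm5 (0.75), Dclk1 (0.68), Siglecf (0.98) and Avil (0.76). Paneth markers ran from 1.66 to 3.27 in Irf2_AhcKO and from 2.20 to 2.77 in controls, led by Mmp7 (0.52), Nupr1 (0.34), Mptx1 (-0.67) and Ang4 (0.16). Mesenchymal and endothelial markers were led by Egfl7 (0.52), Pecam1 (-0.35), Col3a1 (-0.95) and Plvap (-0.14), and red blood cell markers by Alas2 (0.32), Slc4a1 (0.08) and Hba-a1 (0.05). Cell cycle genes were led by Cenpf (-0.59), Aurkb (0.24), Mcm5 (0.19) and Ccnd1 (-0.16). No gene of these lists passed over all features, and their part in the leukocyte levels was not tested.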

How the data were processed

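RNA of 8 samples was hybridised to 8 Agilent 1-colour arrays. The authors' deposited scanner files hold a background-subtracted intensity per spot, made with Agilent Feature Extraction 11.5.1.1 per the file headers. Per the labels' protocols, RNA was amplified with a whole-transcriptome kit from 20 ng. Here log2 of that intensity was taken and centred, per array, on the 75th percentile of its 59305 non-control spots. Repeated spots were averaged per probe, leaving out those marked as outliers. Of 55681 probes, 28331 got a gene name by matching their deposited accession to RefSeq (GRCm38.p6), none with several genes. The array's grid is annotated on mm9, so no probe coordinates are given. Arrays carry no read depth, and their number limits the precision. Between 61.4% and 69.8% of spots were well above background and none was saturated.

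Probes well above background on at least 4 arrays were kept, a gene being its brightest kept probe, and fitted with limma 3.58.1 in R 4.3.3 (lmFit, eBayes, slide as a term). Figures used matplotlib 3.10.9. The fit was tested on simulated data. Same-numbered arrays deviated together (r across genes 0.46, 0.49, 0.52 and 0.53), which makes the numbers pairs by the rule used here. Those arrays also share a slide, and these r values include the slide difference, so they do not by themselves show pairing. The labels describe separate mice, and within slides r was 0.05 on slide 1 and 0.21 on slide 2.

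Members and lists were chosen with earlier results of these data known. Every member is named, with full statistics for unadjusted p below 0.05 and the 2 largest differences per list, and up to 4 genes of other lists by unadjusted p. Genes named for detection alone were picked after their calls were seen. Alternatives were normexp with an offset of 50 (on the spots' median signal, since the files used here hold no mean signal), quantile and median scaling, other filters, no slide term, the replicate number as a block, each slide alone, the deposited series table, the mean of a gene's probes and leaving out each array.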

Additional observations from a re-analysis of the deposited data

Results flagged for a closer look

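Of 68 groups of 4 values (34 markers in each labelled group), 5 had a sample farther from the others than Dixon's criterion (the gap to the nearest sample over the range) allows, and chance flags about 1 in 20 groups. Cd69 stood at -4.31 on control replicate 2, the only array where it was above background, and at -6.24 on Irf2_AhcKO replicate 3, below background there. Cd79b was highest in its group on Irf2_AhcKO replicate 1, at -2.73, in a group that spanned little. Adgre1 was highest on Irf2_AhcKO replicate 2, at -3.70, the only array of that group above background. S100a9 was highest on Irf2_AhcKO replicate 4, at -5.86, below background there.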

How the results depend on the processing

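None of the tested markers passed as reported or in any alternative that was run with limma, where 1 to 6 had an unadjusted p below 0.05. The count of all features passing was 25, with 133 under normexp, 7 with no filter, 46 with probes above background on all 8 arrays, 0 with the replicate block, 0 on slide 1 alone, 0 on slide 2 alone, and 0 to 25 when 1 array was left out (0 without Irf2_AhcKO replicate 1, Irf2_AhcKO replicate 2 or control replicate 2). The replicate block changed no call of a marker. The myeloid median was -0.063 as reported, 0.076 with no filter, 0.055 with probes above background on all 8 arrays and 0.044 on slide 2 alone. Leaving out 1 array gave medians of 0.07 to 0.22 for T, -0.08 to 0.09 for B and -0.080 to 0.053 for myeloid markers. Tyrobp turned to 0.97 on slide 2 alone and ran from -0.81 to 0.13 when 1 array was left out. Pou2af1 turned to 0.017 on slide 1 alone and ran from -0.18 to 0.10. Cd79b kept its direction wherever it was tested, from 0.215 with normexp to 1.98 on slide 2 alone, where neither control was above background. Cd79b and Tyrobp dropped out when probes had to be above background on all 8 arrays. Between slides, 5 to 8 markers passed under other scalings and filters, alternatives chosen after seeing the data. The causes were not tested. Dim probes limit the rest, since 11 of 34 markers were too dim to test.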

Other observations

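Was, a gene of most leukocytes that regulates actin, was set apart by replicate number and not by genotype. It stood at 3.28 on Irf2_AhcKO replicate 4 and 3.43 on control replicate 4, against -2.02 to -1.99 on the other Irf2_AhcKO arrays and -2.41 to -2.35 on the other control arrays. It was singled out after its values were seen. Trat1, an adaptor of the T cell receptor, was above background on control replicate 3 only, at -2.40.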
